A study of Homo sapiens with 12 samples.

Results

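The genes described here encode the human aminoacyl-tRNA synthetases. They were taken by gene symbol, older symbols without the final 1 included, and split into a cytosolic set (symbols ending in 1, FARSA and FARSB) and a mitochondrial set (symbols ending in 2). Of 34 listed genes, 33 had a probe with a gene symbol and all 33 passed the filter on detection, 18 of 19 cytosolic and 15 of 15 mitochondrial, among 17988 features tested in the whole series. CARS1, the cytosolic cysteinyl enzyme, is not analysed here, because no probe used here carried its symbol. A probe of 32 of the 33 genes was detected on all 12 arrays, and that of LARS2 was detected on 11.

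Messenger RNA was measured on 12 Illumina bead arrays in SK-OV-3, an established human ovarian cancer cell line. The 4 groups of 3 arrays were cells with a scrambled control shRNA (shCTRL), the same with CDDP, cells with an shRNA against IRF-1 (labelled shIRF1), and the same with CDDP. CDDP is cisplatin, a platinum drug that crosslinks DNA; RNA was taken after 24 hours of it, and the sources used here give no dose. All 4 groups share the cell line and carry 1 shRNA or the other, so none is an untransfected control, and the labels name neither the vector nor how many shRNA sequences were used. Separate cultures are not mentioned in the labels for the 3 samples of a group, so each p-value speaks of the spread among these samples only, and that spread may be technical.

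A level is a normalized log2 probe signal, and a difference of 1 on that scale is a change of 2-fold. A gene was called, written as rose or fell, when its two-sided limma p-value, adjusted over all 17988 features, was under 0.05. Between 38.2% and 44.7% of probes were detected per array, and arrays of the same group correlated at 0.970 to 0.986 against 0.917 to 0.978 for arrays of different groups. The epithelial markers KRT8, KRT19, EPCAM, ERBB2 and PAX8 were detected on 12 arrays and KRT18 on 11. PTPRC, the pan-leukocyte marker, was detected on at most 1 array by any probe, CD3E and VWF on 0, PECAM1 on 3, DCN on 2, COL1A2 on 4 and COL1A1 on 12. With CDDP 3 of these 6 epithelial markers fell under shCTRL (KRT19 -2.17, PAX8 -1.53 and ERBB2 -1.08, median of the 6 -0.74). Under the shIRF1 label 4 of 6 fell (KRT19 -1.98, PAX8 -1.29, ERBB2 -0.92 and EPCAM -0.91, median -0.92). Over all features, 13.5% fell under shCTRL and 11.5% under the shIRF1 label. The part of these markers in the results that follow was not tested. IRF1, the target of the shRNA, did not pass the test between labels without CDDP (log2 difference 0.10, limma adjusted p = 0.902) and was at -0.82 with CDDP (limma adjusted p = 0.0811). The label is therefore written as a label throughout.

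Each aminoacyl-tRNA synthetase joins 1 kind of amino acid to the transfer RNAs that carry its anticodons, the step at which the genetic code is read into chemistry. The cytosol and the mitochondrion translate separately. Most mitochondrial enzymes have nuclear genes of their own, while KARS1 and GARS1 each make both forms, and mitochondrial glutaminyl-tRNA is made by amidation instead of by a dedicated enzyme. Several cytosolic enzymes sit in a multisynthetase complex. When amino acids run short, uncharged transfer RNA activates the eIF2 kinase GCN2, and the transcription factor ATF4 that follows is known to drive many cytosolic synthetase genes together with amino acid transporters and synthetic enzymes. WARS1, the cytosolic tryptophanyl enzyme, is also known as an interferon gamma inducible gene.

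ATF4 binds with C/EBP partners at a composite element whose core was searched here as TGATGNAA on both strands, in promoters of 250 bases before to 50 bases after the gene start (RefSeq, GRCh38.p14). A promoter was found for 28 of the 33 genes, and LARS1, VARS1, YARS1, AARS2 and VARS2 had no entry in the table used. The motif was present in 5 of 15 cytosolic promoters (33.3%), in 1 of 13 mitochondrial promoters (7.69%) and in 3.62% of 35116 promoters of the same length. The 6 windows are shown because they are the members with the letters of the ATF4 element. Each window has 60 bases, is written 5′ to 3′ on the strand of its gene, and has the motif, or its reverse complement, in capitals.
AARS1, cytosolic, chr16:70289660-70289719, minus strand: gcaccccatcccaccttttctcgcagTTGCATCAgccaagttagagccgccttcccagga
IARS1, cytosolic, chr9:92293677-92293736, minus strand: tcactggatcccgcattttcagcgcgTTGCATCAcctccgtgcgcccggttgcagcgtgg
MARS1, cytosolic, chr12:57488038-57488097, plus strand: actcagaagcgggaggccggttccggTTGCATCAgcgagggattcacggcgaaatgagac
NARS1, cytosolic, chr18:57621789-57621848, minus strand: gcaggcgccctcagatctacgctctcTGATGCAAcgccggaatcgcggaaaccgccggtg
TARS1, cytosolic, chr5:33440941-33441000, plus strand: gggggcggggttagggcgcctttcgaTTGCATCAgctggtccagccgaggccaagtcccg
YARS2, mitochondrial, chr12:32756061-32756120, minus strand: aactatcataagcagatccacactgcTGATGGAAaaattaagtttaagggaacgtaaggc
All 5 cytosolic matches read TGATGCAA on 1 of the strands, while the YARS2 match reads TGATGGAA. Relative to the gene start, the match began at position -187 in AARS1, -13 in IARS1, -4 in MARS1, 3 in TARS1, 15 in NARS1 and -197 in YARS2. A match is a run of letters, and whether ATF4 binds there was not measured. An IRF element, GAAA followed by another GAAA after 2 bases of any kind, was in 0 of 15 cytosolic and 1 of 13 mitochondrial promoters (EARS2), against 3.57% of all promoters. The motifs can overlap one another, and overlaps were not removed.

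With CDDP under shCTRL 17 of 18 cytosolic genes did not pass the test, and SARS1 rose 1.63-fold. In the mitochondrial set 6 of 15 genes were called: LARS2, NARS2, WARS2, IARS2 and EARS2 fell and VARS2 rose. The share called was 1 of 18 (5.56%) for the cytosolic set and 40.0% for the mitochondrial set, beside 27.0% of all features (13.5% higher, 13.5% lower). The cytosolic count depended on the processing: it was 4 without background correction and from matrix values, and 0 with median scaling. It was 3 without a detection filter and with a variance trend, and 1 with each array left out in turn. Of the features called, 50.01% were higher, and 37.4% when arrays were scaled to 1 median instead of by quantiles. The median log2 difference was 0.01 over the cytosolic genes, -0.37 over the mitochondrial genes and 0.04 over all features. At an unadjusted limma p under 0.05 there were 3 of 18 cytosolic and 8 of 15 mitochondrial genes, beside 6655 of 17988 features. The arrays with and without CDDP did not overlap for 3 cytosolic genes upward and 3 downward, and for 1 mitochondrial gene upward and 6 downward, against 40.2% of all features without overlap (20.9% higher, 19.3% lower). In RNA from whole cultures, fewer cells of a kind and less RNA per cell cannot be told apart.

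With CDDP on arrays labelled shIRF1, the cytosolic SARS1, TARS1 and GARS1 rose and WARS1 fell, while among mitochondrial genes LARS2, NARS2 and WARS2 fell and VARS2 rose. These were 4 of 18 cytosolic genes (22.2%) and 4 of 15 mitochondrial genes (26.7%), beside 22.0% of all features (10.5% higher, 11.5% lower), so both shares lay near the background. The cytosolic count was not stable: it was 1 to 4 with each array left out in turn, 1 with only the groups compared in the fit and 0 with median scaling. The medians were 0.08 for the cytosolic set, -0.19 for the mitochondrial set and 0.02 for all features. An unadjusted limma p under 0.05 was reached by 6 of 18 cytosolic and 7 of 15 mitochondrial genes, beside 5846 of 17988 features. The group means compared under the 2 labels share no array. All 12 arrays were normalized together and share 1 estimate of the spread, however, so the calls are not independent. Called in both were SARS1 of the cytosolic set and LARS2, NARS2, WARS2 and VARS2 of the mitochondrial set, each in the same direction.

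**Figure D1:**
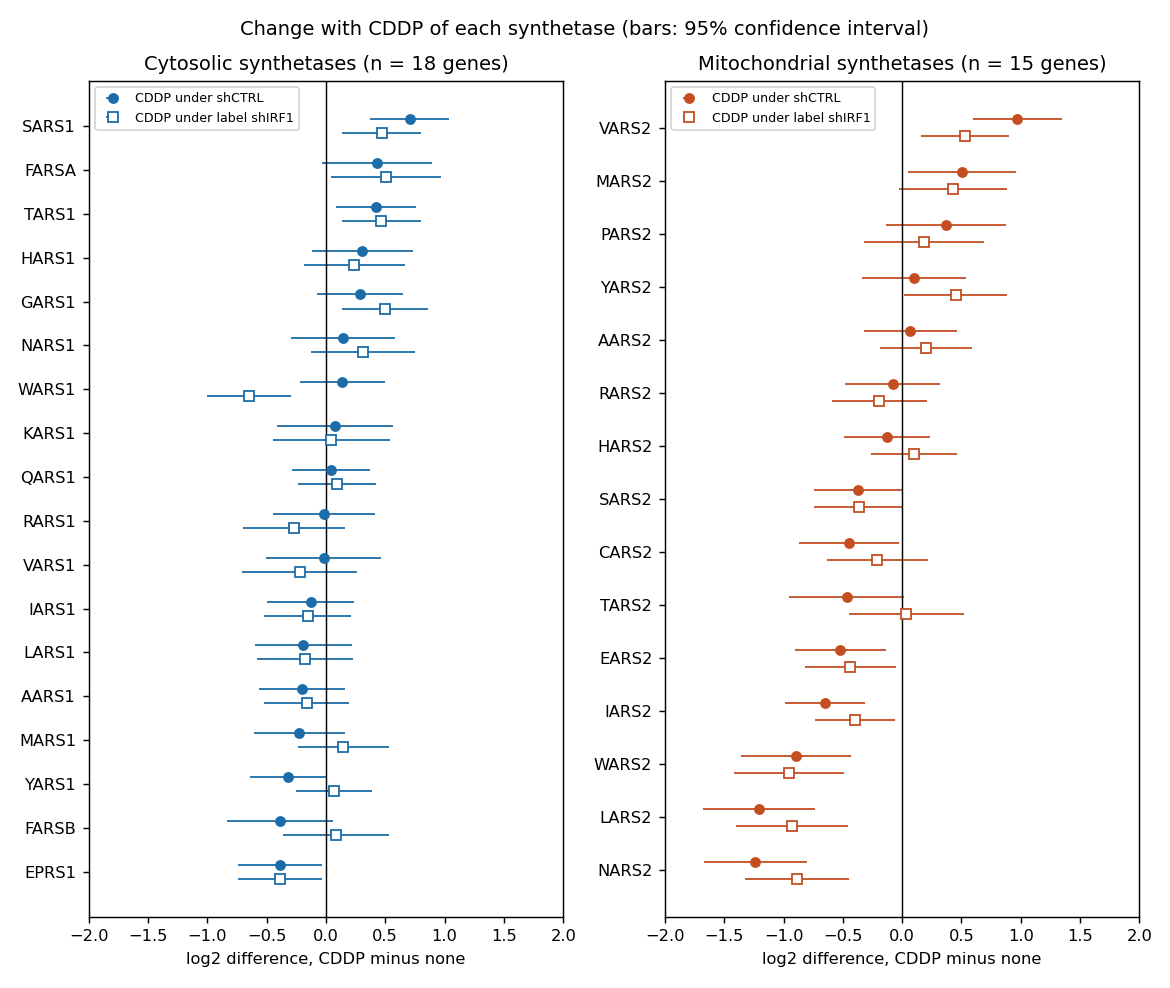
Log2 difference with CDDP (horizontal axis) for each of the 18 cytosolic and 15 mitochondrial synthetase genes, with 95% confidence intervals from the limma fit; filled circles are shCTRL and open squares are arrays labelled shIRF1. Cytosolic estimates lie between -0.65 and 0.71, and the mitochondrial ones reach from -1.24 to 0.97, with NARS2, LARS2 and WARS2 lowest under both labels.

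SARS1 encodes the cytosolic seryl-tRNA synthetase. Its log2 levels were 9.70, 9.79 and 9.88 under shCTRL and 10.41, 10.46 and 10.62 with CDDP. Those labelled shIRF1 gave 9.49, 9.61 and 9.39 without CDDP and 10.07, 9.92 and 9.92 with it. Under each label every CDDP array lay above every array without the drug, and the CDDP arrays of the shIRF1 label lay below those of shCTRL. The rise was 0.71 (SE 0.16, 95% confidence interval 0.37 to 1.04, limma adjusted p = 0.00324) under shCTRL and 0.47 (limma adjusted p = 0.0420) under the shIRF1 label. The call under shCTRL was lost with median scaling (limma adjusted p = 0.0554). A difference between the 2 responses was not called by the interaction test (-0.23, limma adjusted p = 0.831), for which 0.0667% of all features were called.

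TARS1, the cytosolic threonyl enzyme, had log2 levels of 10.87, 10.68 and 10.86 under shCTRL and 11.17, 11.16 and 11.33 with CDDP. On arrays labelled shIRF1 its levels were 10.38, 10.62 and 10.35, and 10.90, 10.91 and 10.93 with CDDP. The arrays did not overlap under either label. The difference was 0.42 under shCTRL, where it missed the threshold (limma adjusted p = 0.0592, and 0.00477 to 0.215 over the alternatives, 5 of which called it), and the rise was 0.47 under the shIRF1 label (limma adjusted p = 0.0450).

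GARS1, the glycyl enzyme that serves both compartments, had log2 levels of 10.14, 10.06 and 9.89 on arrays labelled shIRF1 and 10.42, 10.64 and 10.53 with CDDP, with no overlap, a rise of 0.50 (limma adjusted p = 0.0472). Under shCTRL its arrays overlapped, at 9.91, 10.03 and 10.32 without CDDP and 10.53, 10.30 and 10.29 with it, and the difference was 0.29 (limma adjusted p = 0.246). The calls of SARS1, TARS1 and GARS1 under the shIRF1 label were close to the threshold. The SARS1 call was lost without any 1 of the arrays of shCTRL, shIRF1 and shIRF1 with CDDP, 9 of 12 arrays (limma adjusted p 0.0507 to 0.131 without them). The TARS1 call was kept only without shCTRL with CDDP replicate 3 or shIRF1 replicate 2 and was lost without any other array (0.0503 to 0.137). The GARS1 call was kept only without shCTRL replicate 3 or replicate 1 or 3 of shCTRL with CDDP (0.0511 to 0.150 without any other array). All 3 were also lost with median scaling (SARS1 0.222, TARS1 0.248, GARS1 0.216) and with only the groups compared (0.0759, 0.0806 and 0.0653).

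WARS1 differed between the labels. Log2 levels were 9.65, 9.46 and 9.56 under shCTRL, beside 10.09, 10.47 and 10.49 for the shIRF1 label. With CDDP they were 9.60, 9.73 and 9.75 under shCTRL, beside 9.71, 9.59 and 9.81 for the shIRF1 label. The 3 arrays of the shIRF1 label without CDDP stood above the other 9, which overlapped one another.

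WARS1 rose 1.74-fold between labels without CDDP (log2 difference 0.80, SE 0.17, 95% confidence interval 0.44 to 1.15, limma adjusted p = 0.00918). With CDDP the labels differed by 0.01 (limma adjusted p = 0.985). On arrays labelled shIRF1 it fell with CDDP by 0.65 (limma adjusted p = 0.0108), while under shCTRL the difference was 0.14 (limma adjusted p = 0.596). These comparisons share arrays: the shIRF1 arrays without CDDP enter both calls. The interaction was -0.79, which did not pass over all features (unadjusted p = 0.00448, limma adjusted p = 0.391), so the difference between the 2 responses was not called. With median scaling both WARS1 calls were lost (limma adjusted p = 0.306 between labels and 0.239 with CDDP). A dimmer WARS1 probe, detected on 12 arrays, gave 0.88 between labels without CDDP (limma adjusted p = 0.0278) and -0.11 with CDDP (limma adjusted p = 0.842). For the response to CDDP it gave 0.44 under shCTRL (limma adjusted p = 0.163) and -0.55 under the shIRF1 label (limma adjusted p = 0.0942).

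The other cytosolic enzymes were not called in either CDDP comparison. The 7 tested members of the multisynthetase complex were EPRS1 (glutamyl and prolyl), IARS1 (isoleucyl), LARS1 (leucyl), MARS1 (methionyl), QARS1 (glutaminyl), RARS1 (arginyl) and KARS1 (lysyl), and 0 of 7 were called, beside 27.0% and 22.0% of all features, which is too few genes to set the complex apart. Their log2 differences ran from -0.39 to 0.07 under shCTRL and from -0.39 to 0.14 under the shIRF1 label. The complex was singled out after values had been seen, so this is a description. EPRS1 had the lowest difference of the 7 under both labels, with levels of 10.70, 10.55 and 10.84 under shCTRL and 10.10, 10.30 and 10.52 with CDDP, which did not overlap. Its levels were 11.04, 10.96 and 11.14 on arrays labelled shIRF1 and 10.72, 10.58 and 10.68 with CDDP, again without overlap, and the limma adjusted p was 0.101 and 0.116.

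Of the enzymes outside the complex, AARS1 (alanyl), HARS1 (histidyl), NARS1 (asparaginyl), VARS1 (valyl) and YARS1 (tyrosyl) had log2 differences with CDDP between -0.32 and 0.31 across both labels. FARSA and FARSB are the subunits of the cytosolic phenylalanyl enzyme. FARSA was at 0.43 under shCTRL (limma adjusted p = 0.165) and 0.51 under the shIRF1 label (limma adjusted p = 0.115), and FARSB was at -0.39 (limma adjusted p = 0.197) and 0.08 (limma adjusted p = 0.844). Every 95% confidence interval of an uncalled cytosolic gene lay within -0.83 to 0.90 under shCTRL and -0.74 to 0.97 under the shIRF1 label, so a change of 2-fold lay outside all of them. The 5 cytosolic genes whose promoter windows are printed above had differences of -0.23 to 0.42 under shCTRL with 0 called, and of -0.16 to 0.47 under the shIRF1 label with 1 called (TARS1).

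**Figure D2:**
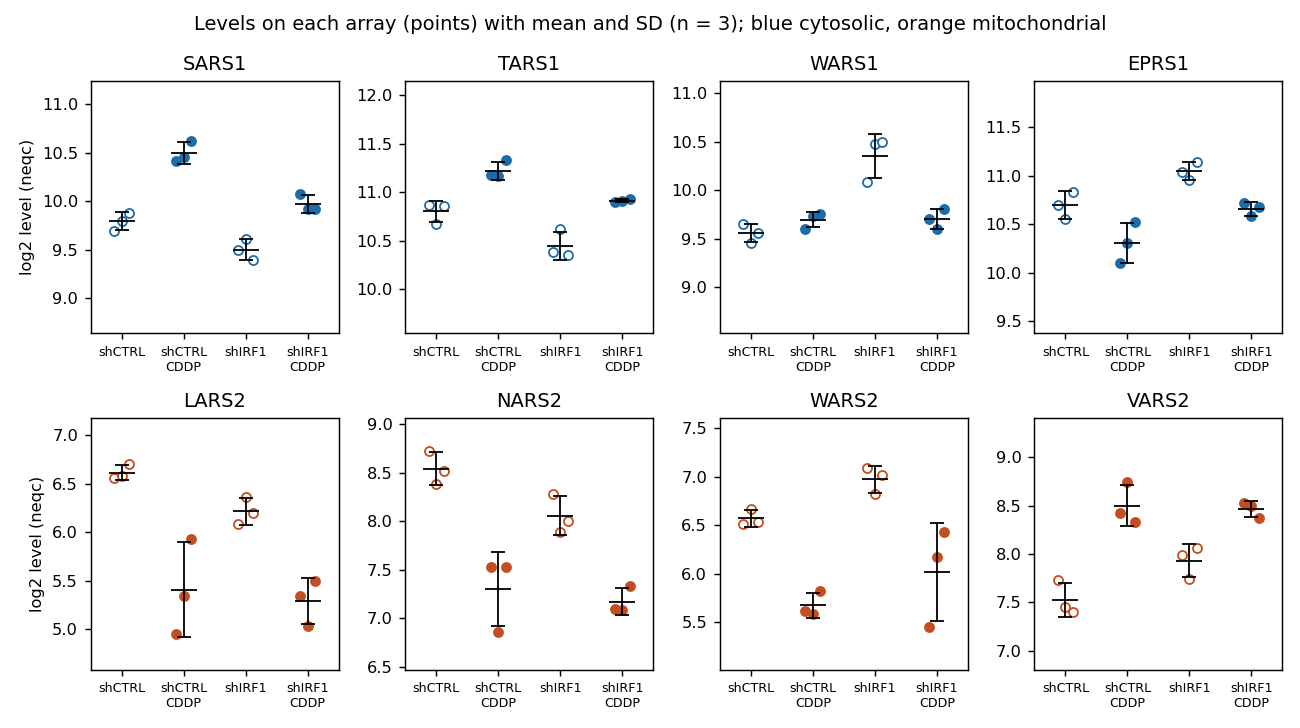
Normalized log2 level (vertical axis) of 4 cytosolic genes (upper row) and 4 mitochondrial genes (lower row) on each of the 12 arrays, by group; points are arrays, filled with CDDP, and bars are the mean and SD of 3 arrays. SARS1 and VARS2 lie higher on every CDDP array under each label, LARS2, NARS2 and WARS2 lie lower, and WARS1 is highest on the arrays labelled shIRF1 without CDDP.

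The mitochondrial leucyl enzyme LARS2, which charges the transfer RNA that is a frequent site of mitochondrial disease mutations, had log2 levels of 6.56, 6.57 and 6.70 under shCTRL and 4.95, 5.34 and 5.92 with CDDP. Arrays labelled shIRF1 gave 6.09, 6.36 and 6.20, and 5.34, 5.03 and 5.49 with CDDP. All 6 CDDP arrays lay below all 6 arrays without it. LARS2 fell by 1.21 (2.31-fold, SE 0.22, limma adjusted p = 0.000777) under shCTRL and fell by 0.93 (limma adjusted p = 0.00670) under the shIRF1 label. The size depends on the background step: without background correction the differences were -0.50 and -0.35, and from matrix values -0.65 and -0.46, all still called.

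NARS2, the mitochondrial asparaginyl enzyme, had log2 levels of 8.72, 8.38 and 8.52 under shCTRL and 7.53, 6.86 and 7.52 with CDDP. On arrays labelled shIRF1 its levels were 8.28, 7.89 and 7.9996, and 7.10, 7.08 and 7.33 with CDDP. Here too the highest array with CDDP was below the lowest array without it. NARS2 fell by 1.24 (2.36-fold, SE 0.20, limma adjusted p = 0.000318) under shCTRL and fell by 0.89 (limma adjusted p = 0.00528) under the shIRF1 label. These sizes also depend on the background step: the differences were -0.89 and -0.61 without background correction. From matrix values they were -1.01 and -0.69, and all were still called.

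WARS2, the mitochondrial tryptophanyl enzyme, had log2 levels of 6.51, 6.67 and 6.53 under shCTRL and 5.61, 5.58 and 5.82 with CDDP. Its levels were 7.09, 6.82 and 7.01 on arrays labelled shIRF1 and 5.45, 6.17 and 6.43 with CDDP. The groups did not overlap under either label, and the CDDP arrays of the shIRF1 label were the most spread. WARS2 fell by 0.90 (SE 0.22, limma adjusted p = 0.00586) and fell by 0.96 (limma adjusted p = 0.00476). Without background correction the differences were -0.39 and -0.47, and from matrix values -0.51 and -0.59, all still called. Between labels without CDDP, where WARS1 was called, WARS2 was at 0.40 (limma adjusted p = 0.380), and the difference between the genes was not tested.

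IARS2 and EARS2, the mitochondrial isoleucyl and glutamyl enzymes, were called under shCTRL. IARS2 had levels of 10.99, 10.88 and 10.95 under shCTRL and 10.18, 10.26 and 10.43 with CDDP, and fell by 0.65 (SE 0.16, limma adjusted p = 0.00579, lost with median scaling at 0.205). On arrays labelled shIRF1 its levels were 10.998, 10.91 and 11.01, and 10.41, 10.70 and 10.63 with CDDP, a difference of -0.40 that missed the threshold (limma adjusted p = 0.0879). Neither pair of groups overlapped. EARS2 had levels of 7.35, 7.49 and 7.67 under shCTRL and 6.82, 6.85 and 7.27 with CDDP, and fell by 0.52 (SE 0.18, limma adjusted p = 0.0422). It had levels of 7.74, 7.68 and 7.93 on arrays labelled shIRF1 and 7.18, 7.41 and 7.45 with CDDP, a difference of -0.44 (limma adjusted p = 0.0994). Its groups did not overlap under either label. The EARS2 call was lost without any 1 of the shCTRL arrays, replicate 1 or 2 of shCTRL with CDDP, or replicate 1 or 2 of shIRF1 (limma adjusted p 0.0502 to 0.146). It was also lost with median scaling (0.122), only the groups compared (0.0778) and a variance trend (0.0582). The interaction was 0.25 for IARS2 (limma adjusted p = 0.813) and 0.08 for EARS2 (limma adjusted p = 0.955), so a difference between labels was not called for either.

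VARS2, the mitochondrial valyl enzyme, moved the other way. Its log2 levels were 7.73, 7.45 and 7.40 under shCTRL and 8.43, 8.74 and 8.33 with CDDP. Under the shIRF1 label they were 7.99, 7.74 and 8.06, and 8.52, 8.49 and 8.37 with CDDP. All CDDP arrays stood above all arrays without it. VARS2 rose by 0.97 (1.96-fold, SE 0.18, limma adjusted p = 0.000669) under shCTRL and by 0.53 (limma adjusted p = 0.0413) under the shIRF1 label. The latter call was lost without shCTRL replicate 2 or any 1 of the 6 arrays labelled shIRF1 (limma adjusted p 0.0515 to 0.151). It was also lost with median scaling (limma adjusted p = 0.264) and with only the groups compared in the fit (0.0555). Without background correction the VARS2 differences were 0.72 and 0.40, and from matrix values 0.80 and 0.45, all still called.

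The other 9 mitochondrial genes were not called under either label: AARS2 (alanyl), CARS2 (cysteinyl), HARS2 (histidyl), MARS2 (methionyl), PARS2 (prolyl), RARS2 (arginyl), SARS2 (seryl), TARS2 (threonyl) and YARS2 (tyrosyl). Their log2 differences ran from -0.47 (TARS2) to 0.50 (MARS2) under shCTRL. SARS2 was at -0.37 under both labels (limma adjusted p = 0.136 and 0.162), and CARS2 was at -0.45 and -0.21. The 95% confidence intervals of the 9 uncalled genes under shCTRL lay within -0.95 to 0.96.

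For 12 amino acids both a cytosolic and a mitochondrial gene of the same name were measured, which sets the changes of the enzymes side by side. Under shCTRL the mitochondrial gene had the lower log2 difference in 8 of 12 pairs, and under the shIRF1 label in 7 of 12. The widest gap was that of asparagine, with NARS1 at 0.14 and NARS2 at -1.24 under shCTRL. For serine, SARS1 rose by 0.71 while SARS2 was at -0.37, and for leucine LARS1 was at -0.19 beside the fall of LARS2. Valine ran against these, with VARS1 at -0.02 and VARS2 at 0.97, and so did methionine, tyrosine and alanine. A dimmer VARS1 probe, detected on 3 arrays, was at 0.46 under shCTRL (limma adjusted p = 0.116). These gaps are between changes read by different probes and were not tested.

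**Figure D3:**
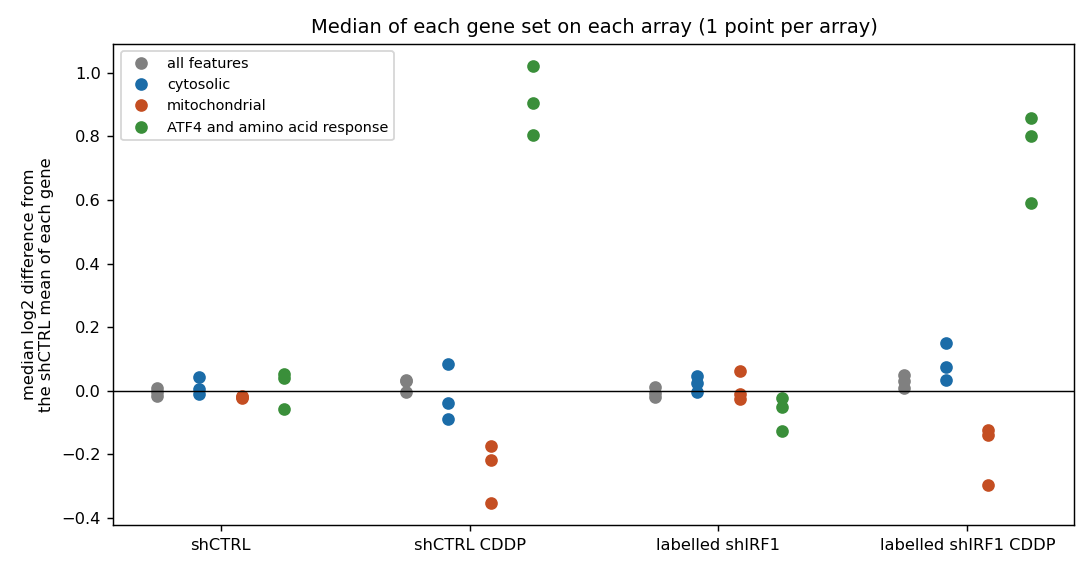
Median over each gene set of the log2 difference from the shCTRL mean of each gene (vertical axis), 1 point per array, by group; the ATF4 list is described in the text. Cytosolic medians stay between -0.09 and 0.15, mitochondrial medians with CDDP lie between -0.35 and -0.12, and those of the ATF4 list with CDDP lie between 0.59 and 1.02.

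By array, the median of the mitochondrial set relative to the shCTRL means was -0.17, -0.35 and -0.22 with CDDP under shCTRL and -0.29, -0.12 and -0.14 with CDDP under the shIRF1 label. On the 6 arrays without CDDP it was between -0.03 and 0.06, so the CDDP arrays lay lower, as the plot of set medians shows. The shCTRL arrays without CDDP form the reference themselves, so their medians are held close to it. The cytosolic median was -0.04, -0.09 and 0.08 with CDDP under shCTRL and 0.15, 0.08 and 0.03 under the shIRF1 label, on both sides of the arrays without CDDP (-0.01 to 0.05). The mitochondrial median stayed negative in both CDDP comparisons under all 22 alternatives. The cytosolic median under shCTRL turned negative in 2 of 22.

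FARS2, the mitochondrial phenylalanyl enzyme, stands outside the listed set. Its log2 levels were 8.63, 8.57 and 8.68 under shCTRL and 5.33, 5.45 and 5.18 with CDDP. Under the shIRF1 label they were 8.73, 8.48 and 8.69, and 4.60, 5.42 and 4.87 with CDDP. The groups were far from overlapping, 1 array of the last group did not detect the probe, and FARS2 fell by 3.31 (limma adjusted p = 4.63e-08) and fell by 3.67 (limma adjusted p = 2.72e-08). Its signal with CDDP was close to background, which limits how exactly these sizes are known. TARS3, a further cytosolic threonyl enzyme, was not called (0.52 under shCTRL, limma adjusted p = 0.0990, and -0.17 under the shIRF1 label, limma adjusted p = 0.666).

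The 3 mitochondrial genes that fell under both labels are long genes. Gene span, from start to end in the RefSeq table (GRCh38.p14), was 160.8 kb for LARS2, 138.9 kb for NARS2, 109.5 kb for WARS2, 53.9 kb for IARS2 and 36.6 kb for EARS2. It was 12.2 kb for VARS2, which rose, and 521.7 kb for FARS2. The median span was 30.7 kb in the cytosolic set, 20.2 kb in the mitochondrial set and 27.3 kb over all named genes, and FARSB was the longest cytosolic gene at 89.2 kb. Of the 33 listed genes tested, the 3 of 100 kb or more fell under both labels, and 0 cytosolic genes were that long.

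Among all named genes of 100 kb or more, 55.3% fell and 1.54% rose under shCTRL (n = 2083, median log2 difference -0.73), and 49.8% fell under the shIRF1 label (median -0.61). Among the 5144 named genes under 20 kb, 3.81% fell and 24.6% rose under shCTRL (median 0.23). The limits on span were chosen after values had been seen. Over the genes of a set, Spearman's rho between span and the log2 difference was -0.84 for the mitochondrial set under each label (n = 15). It was -0.62 under shCTRL and -0.46 under the shIRF1 label for the cytosolic set (n = 18), and -0.48 and -0.42 over all named genes (n = 12485). These values are across genes, which share the same arrays and are not independent, and they carry no p-value. The sign was the same in the synthetases and among all genes, and the part of span in the change of the synthetases was not tested.

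**Figure D4:**
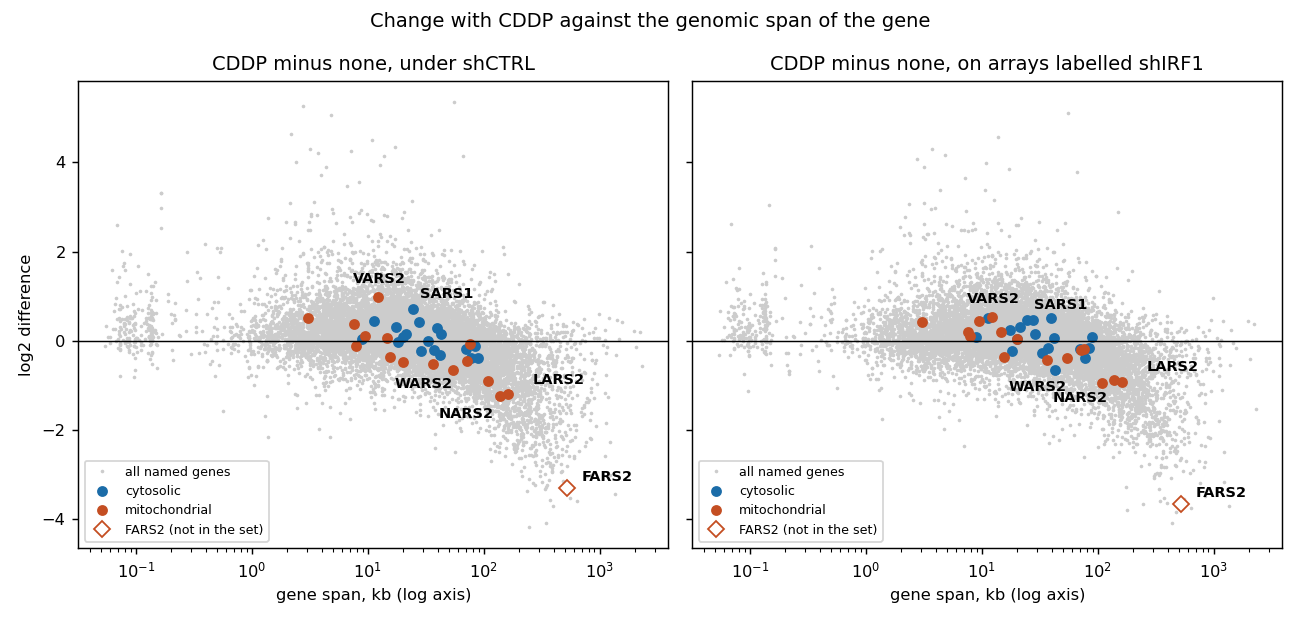
Log2 difference with CDDP (vertical axis) against gene span in kb (horizontal log axis) for all named genes (grey), cytosolic synthetases (blue), mitochondrial synthetases (orange) and FARS2 (open diamond), under shCTRL (left) and on arrays labelled shIRF1 (right). The 3 longest mitochondrial synthetase genes and FARS2 lie lowest, where long genes in general lie low, and every cytosolic gene is shorter than 100 kb.

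The genes of the ATF4 and amino acid response had larger median differences than the synthetases. Of 31 tested, 18 rose and 1 fell with CDDP under shCTRL (median log2 difference 0.97, against 0.04 over all features). Under the shIRF1 label 17 rose and 4 fell (median 0.67, against 0.02). The share called under shCTRL was 61.3%, beside 27.0% of all features (13.5% higher, 13.5% lower). It was 67.7% under the shIRF1 label, beside 22.0% of all features (10.5% higher, 11.5% lower). DDIT3 (CHOP, a stress transcription factor) rose by 3.72, DDIT4 (an mTOR inhibitor) by 3.09, STC2 (stanniocalcin) by 2.83 and PPP1R15A (GADD34, which recruits the eIF2 phosphatase) by 2.82 under shCTRL. Under the shIRF1 label DDIT3 rose by 2.98, PPP1R15A by 2.95, STC2 by 2.64 and MTHFD2, a mitochondrial folate enzyme, by 1.94. ATF4 itself was at 0.46 under shCTRL (limma adjusted p = 0.0658) and rose by 0.66 under the shIRF1 label (limma adjusted p = 0.0128). Genes that fell, named after their values were seen, were the amino acid transporter SLC7A5 under shCTRL (-0.95), and SLC7A5 (-0.75), VLDLR (-0.97), ALDH18A1 (-0.56) and CBS (-0.91) under the shIRF1 label.

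Among 14 genes of the eIF2 kinases and eIF2B, EIF2S1 (the alpha subunit of eIF2, 0.95) and EIF2B2 (0.53) rose under shCTRL. EIF2AK4, which encodes GCN2 (-1.09), EIF2B3 (-0.81) and GCN1 (-0.50), the partner of GCN2, fell. Under the shIRF1 label EIF2S1 (0.91) and EIF2B2 (0.47) rose and 0 fell, with EIF2AK4 at -0.45 (limma adjusted p = 0.203). The shares called were 35.7% and 14.3%, beside 27.0% and 22.0% of all features, and the medians were -0.02 and -0.04. The interaction of EIF2AK4 was 0.64 (limma adjusted p = 0.655). The scaffold proteins of the multisynthetase complex could not be followed, since 1 of 3 had a probe and 0 passed the filter on detection.

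Among the partners of the mitochondrial enzymes the shares called lay near those of all features (27.0% under shCTRL and 22.0% under the shIRF1 label). Of 19 tested mitochondrial translation and tRNA factors, 3 rose and 3 fell under shCTRL (31.6%, median 0.11). GTPBP3 (tRNA wobble uridine modification, 1.16), TRNT1 (which adds the CCA end, 0.88) and MTRF1L (a release factor, 0.67) rose. GATB, a subunit of the amidotransferase that makes mitochondrial glutaminyl-tRNA (-0.81), MTIF2 (initiation, -0.80) and GFM1 (elongation, -0.79) fell. Under the shIRF1 label MTRF1L (1.16) and GTPBP3 (1.04) rose and GATB (-1.19), MTIF2 (-0.69) and GFM1 (-0.63) fell (26.3%, median 0.02). Of 79 genes with a mitochondrial ribosomal protein symbol, which include the pseudogene MRPS31P5, 10 rose and 9 fell under shCTRL (24.1%, median 0.08) and 13 rose and 4 fell under the shIRF1 label (21.5%, median 0.09). The largest under shCTRL were MRPL1 (-1.27), MRPS28 (-1.26), MRPL49 (1.00) and MRPL39 (-0.91).

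Between the labels few features of any kind were called. Without CDDP, WARS1 was the 1 gene called of 33 (1 of 18 cytosolic and 0 of 15 mitochondrial), beside 5.84% of all features (3.10% higher, 2.75% lower). The median was 0.04 for the cytosolic set, 0.03 for the mitochondrial set and 0.00 for all features. An unadjusted limma p under 0.05 was found for 2 cytosolic and 4 mitochondrial genes, beside 3067 of 17988 features. With CDDP, 0 of 18 and 0 of 15 were called by limma, beside 3.85% of all features. There, 2 cytosolic and 1 mitochondrial gene had an unadjusted limma p under 0.05, beside 3276 of 17988 features. Of the features called with CDDP, 42.8% were higher, and 56.8% with median scaling. The medians were 0.07 and 0.10. SARS1 was the nearest to the threshold (-0.53, limma adjusted p = 0.0778, and 0.00733 to 0.415 over the alternatives, 5 of which called it). The 95% confidence intervals of the uncalled genes stayed within -0.92 to 0.87 without CDDP and -0.86 to 0.96 with it.

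The difference between the CDDP responses (the interaction, shIRF1 label minus shCTRL) was called for 0 of 33 synthetases by limma (0.0667% of all features). It reached an unadjusted limma p under 0.05 for 1 cytosolic gene (WARS1) and 0 mitochondrial genes, beside 1455 of 17988 features. The median was 0.03 for the cytosolic set and 0.13 for the mitochondrial set. The intervals ran from -1.29 to 1.10 over cytosolic and from -0.97 to 1.19 over mitochondrial genes, so a difference of 2-fold between responses lay outside the interval for 16 of 18 and 14 of 15 genes.

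Among the 8 tested interferon gamma genes, 2 rose and 0 fell between the labels without CDDP, where WARS1 was also higher: IDO1, which degrades tryptophan (1.72, limma adjusted p = 0.000996), and the guanylate-binding protein GBP2 (1.40, limma adjusted p = 0.000888). With CDDP both were again higher on the arrays labelled shIRF1 (1.14 and 0.86), while WARS1 was not (0.01). PSMB9 (-1.04) and PSMB8 (-0.80), immunoproteasome subunits, were lower there. Over the 8 genes the median between labels was 0.15 without CDDP, where 5 differences were positive and 3 negative. It was -0.71 with CDDP, where 2 differences were positive and 6 negative, so IDO1 and GBP2 do not stand for the list. With CDDP under the shIRF1 label, where WARS1 fell, 3 of the 8 rose and 2 fell (median 0.18): TAP1 (0.84) and IRF1 (0.78) were among those that rose, and IDO1 (-1.24) and GBP5 (-1.07) fell. With CDDP under shCTRL, where WARS1 was not called, IRF1 (1.70), GBP1 (1.45) and TAP1 (1.19) rose and 0 fell (median 0.48). Of the 8 genes, 25% were called between labels without CDDP and 50% with CDDP, beside 5.84% and 3.85% of all features. For the response to CDDP, 62.5% were called under the shIRF1 label and 37.5% under shCTRL, beside 22.0% and 27.0% of all features. Of the ATF4 list, 4 rose and 1 fell between labels without CDDP (DDIT4 2.51, CBS 1.90, PYCR1 1.02, VLDLR 0.94, ATF5 -1.12). That was 16.1% of the list, beside 5.84% of all features. With CDDP 1 of 31 was called (PYCR1, 0.83), which was 3.23%, beside 3.85% of all features. Whether these genes have a part in the level of WARS1 was not tested.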

How the data were processed

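The authors deposited a non-normalized intensity for each probe on each of 12 arrays, with a detection p-value beside it, per the file headers, and a series matrix of intensity values. BeadStudio 2 is named, per the submitters' processing notes; the sources used here name no genome build. Each matrix column followed the deposited signal of its array along a straight line (r = 1, factor 1.37 to 2.66, constant -116 to -14.2), so it is linear, uncentred and brighter for higher; what set the factor is unknown, and its column medians were 116 to 132.

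From the deposited intensities, neqc of limma 3.58.1 (R 4.3.3) corrected background with detection p-values, added an offset of 16, normalized by quantiles and took log2. Of 47313 probes, 30109 had 1 gene symbol, 8 several and 17196 none; symbols were updated through Entrez identifiers to RefSeq GRCh38.p14. Probes detected (p-value under 0.05) on 3 arrays or more were kept (22260), and the brightest probe stood for a gene, which left 17988 features (12492 named, 5496 unnamed). One mean per group was fitted over 12 arrays (lmFit and eBayes, with residual degrees of freedom of 8 and a prior of 7.18), with Benjamini-Hochberg adjustment over all features. With 3 arrays per group, the number of arrays limits the precision. The model was run on simulated data with independent noise on each array, as a check of the code. That noise held nothing shared by samples of the same number, so the run does not bear on the calls here.

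Named are all 34 listed genes, the other synthetases, IRF1 and up to 4 genes per list and comparison, called genes first and then by size; exceptions are stated as chosen after values were seen, as are all called genes of the eIF2, mitochondrial translation and ATF4 lists beyond 4. Members and lists were chosen with earlier results of these data known. Alternatives tried were background correction, scaling, matrix values, detection filters, probe averaging, fewer groups, array weights, a variance trend, a replicate block and each array left out; the slide as a block was not run, since the sources used here name no slide.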

Additional observations from a re-analysis of the deposited data

How the results depend on the processing

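LARS2, NARS2 and WARS2 kept their falls with CDDP under both labels in every alternative that tested them (22 each, 21 for LARS2), and VARS2 kept its rise under shCTRL. Without background correction, however, LARS2 shrank to -0.50 and -0.35, WARS2 to -0.39 and -0.47, and NARS2 to -0.89 and -0.61. VARS2 shrank to 0.72 under shCTRL and 0.40 under the shIRF1 label. SARS1 and IARS2 under shCTRL and both calls of WARS1 were lost with median scaling alone. Over the 33 listed synthetases tested, 3493 repeated results kept their side of the threshold, 58 lost and 31 gained a call. Of their values, 0 called ones turned sign, while 146 of 3201 uncalled ones did. FARS2, TARS3, IRF1 and the single genes of the other lists were not in these counts. Median scaling called 2984, 2228, 500, 310 and 7 features in the 5 comparisons (CDDP under shCTRL, CDDP under shIRF1, the label without CDDP, the label with CDDP, and the interaction) against 4849, 3960, 1051, 692 and 12. It called 0 cytosolic genes in the former 3 of them, gave cytosolic medians of 0.10 and 0.15 for CDDP, and gave a mitochondrial median of 0.25 for the interaction. For CDDP under shCTRL, cytosolic calls numbered 4 without background correction and from matrix values, 3 without a detection filter and with a variance trend, and 2 with detection under 0.01 on all 12 arrays, where LARS2 was not tested. The mitochondrial median there was -0.19 without background correction, -0.24 from matrix values and -0.25 under the stricter detection. Without background correction, 2 cytosolic genes (WARS1 and TARS1) and 1 mitochondrial gene (HARS2) were called between labels without CDDP. With CDDP, SARS1 was the 1 cytosolic gene called between labels in the same 5 settings. Only the groups compared gave 1 cytosolic call (WARS1) for CDDP under shIRF1 and 329 features for the label with CDDP. The interaction called 20 features from matrix values, 5 under the stricter detection and 19 with array weights. Causes were not tested.

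Without 1 array at a time, called features ranged from 569 to 1160 between labels without CDDP (620 without shCTRL replicate 1, 646 without shCTRL replicate 3, 569 without shIRF1 replicate 1). They ranged from 357 to 737 with CDDP (390 and 357 without shIRF1 CDDP replicates 1 and 3), and from 2 to 14 for the interaction. Cytosolic calls for CDDP under shIRF1 ranged from 1 to 4. The cytosolic median ranged from -0.0776 to 0.0823 for CDDP under shCTRL, from 0.0142 to 0.135 for the label with CDDP and from -0.0313 to 0.079 for the interaction. The mitochondrial median for CDDP under shCTRL ranged from -0.39 to -0.25.

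Samples of 1 number in different groups deviated together only in part (correlations -0.03 to 0.24, mean 0.11, over 18 pairs, 10 of them over 0.1). Pairs of different numbers ran from -0.23 to 0.10 (mean -0.06, 36 pairs, 0 over 0.1), and 10 of 12 arrays were closest to their own number, a hint that numbers share something. Since not every pair was over 0.1, the number was not taken as a pairing. With a replicate block, 5226, 4294, 1210, 835 and 13 features were called, and the GARS1 call under shIRF1 was lost (limma adjusted p = 0.0543). The LARS2 probe was detected on 11 of 12 arrays, so signal over background limits the size of its fall.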
